A study of Mus musculus with 23 samples.

Results

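The adult globin genes Hba-a1 and Hba-a2 (alpha) and Hbb-bs and Hbb-bt (beta) were taken by gene symbol from the ovary expression table, as 4 of its 24716 genes. They were chosen because their levels by strain were already known from these counts, so their strain differences are given as a description with no test. Gene expression was measured in whole ovary of wild-type female mice of 3 inbred strains on 2 diets. C57BL/6J gave the mouse reference genome, CAST/EiJ is an inbred line of the subspecies castaneus, and NZO/HlLtJ is a strain that becomes obese through many genes. Mice received a diet of 10% fat with fiber (control) or of 44% fat with fiber (high in fat and sugar) from week 6, and tissue was taken at week 15. There were 3 libraries of C57BL/6J on 10% fat, 4 of C57BL/6J on 44% fat, and 4 on each diet for CAST/EiJ and for NZO/HlLtJ. The effects of fat and sugar cannot be told apart in this design, and no label ties a library to its own mouse. The p-values below thus rest on a spread between libraries that may be technical. Libraries held 31.9 to 45.9 M counts, and the stage of the estrous cycle is not labelled.

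Hemoglobin, the oxygen carrier of red blood cells, is a tetramer of alpha and beta chains around heme, and each kind of chain is encoded by duplicated genes in a cluster of its own. Inbred mouse strains carry different versions of these clusters, which can differ in how many gene copies there are and in how alike the copies are. In an ovary, globin RNA is known mainly as RNA of blood cells in the vessels, above all of young red cells that still hold RNA. In a bulk sample, fewer cells of a type and less RNA per cell cannot be told apart, and the labels do not say whether the tissue was perfused. The genotype of these clusters was not read here, so levels are given by strain and by gene.

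The copies of each pair are almost the same sequence, which bears on every count that follows. In the GENCODE M21 transcripts on build GRCm38, Hba-a1 (ENSMUSG00000069919, chr11:32283511-32284465, plus strand) and Hba-a2 (ENSMUSG00000069917, chr11:32296489-32297298, plus strand) share 426 coding bases, without the stop codon, that differ at 1 base. Hbb-bs (ENSMUSG00000052305, chr7:103826534-103827928, minus strand) and Hbb-bt (ENSMUSG00000073940, chr7:103812524-103813996, minus strand) share 441 coding bases that also differ at 1 base. The alpha difference is C381T from Hba-a1 to Hba-a2 and the beta difference is C417T from Hbb-bs to Hbb-bt, with positions counted from 1 at the A of the start codon. Each lies in the last exon, at the third position of its codon. The stretches around these bases are shown because they are where reads of the coding sequence can tell the copies apart, and the capital marks the base that differs. They lie at chr11:32284323-32284363 and chr11:32297140-32297180 on the plus strand and at chr7:103826672-103826712 and chr7:103812663-103812703 on the minus strand, and are written 5′ to 3′ along the coding strand.
Hba-a1: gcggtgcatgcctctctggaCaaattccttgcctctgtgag
Hba-a2: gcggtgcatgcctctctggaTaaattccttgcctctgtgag
Hbb-bs: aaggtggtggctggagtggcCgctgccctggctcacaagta
Hbb-bt: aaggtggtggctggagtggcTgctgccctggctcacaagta

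The untranslated parts separate the beta copies better than the alpha copies. The 5′ UTR of the annotated beta transcripts was 83.0% identical over the 53 bases compared, and the 3′ UTR was 71.3% identical. The alpha transcripts were identical over the 35 bases of 5′ UTR and the 77 bases of 3′ UTR that both hold. The annotated transcript of Hba-a1 is longer (699 bases, with 196 of 5′ UTR) than that of Hba-a2 (554 bases, with 35 of 5′ UTR). The labels state reads of 100 bases. Of the stretches of that length in each transcript, 56.5% of those in Hba-a1, 74.5% of those in Hba-a2, 62.6% of those in Hbb-bs and 54.8% of those in Hbb-bt also occur in the other copy. The division of reads between copies therefore rests on the authors' estimation, and whether it used sequences of each strain is not given in the sources used here. Sums per globin type are given beside each copy for this reason.

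In the promoters, too, the alpha copies were more alike than the beta copies. The 250 bases before the RefSeq starts of Hba-a1 and Hba-a2 overlap by 247 bases when shifted by 3, and all 247 were identical. Those of Hbb-bs and Hbb-bt were 69.3% identical when aligned. The windows of Hba-a2 (chr11:32296242-32296491, plus strand) and Hbb-bs (chr7:103827929-103828178, minus strand), from RefSeq on GRCm38.p6, are shown as 1 example of each globin type. The last 3 bases of the Hba-a2 window lie in its GENCODE transcript. The RefSeq windows of Hba-a1 and Hbb-bt reach further into their GENCODE transcripts, which start upstream of the RefSeq start, so they are not shown, and part of the identity above is between promoter and annotated transcript. Capitals mark the motifs found. CACCC and its longer form, written CACACCC, are known as binding sequences of the red cell factor KLF1. The others were the CCAAT box, the letters AGATAA of the kind that GATA1 binds, and a TATA-like ATATAA. Other spellings around GATA were not searched for, such as the tgataa left in lower case in the Hba-a2 window.
Hba-a2: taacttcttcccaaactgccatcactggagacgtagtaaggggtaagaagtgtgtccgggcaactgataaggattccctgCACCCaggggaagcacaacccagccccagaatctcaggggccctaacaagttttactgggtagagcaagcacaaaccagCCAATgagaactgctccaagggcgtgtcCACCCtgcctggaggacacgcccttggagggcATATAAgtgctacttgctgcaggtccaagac
Hbb-bs: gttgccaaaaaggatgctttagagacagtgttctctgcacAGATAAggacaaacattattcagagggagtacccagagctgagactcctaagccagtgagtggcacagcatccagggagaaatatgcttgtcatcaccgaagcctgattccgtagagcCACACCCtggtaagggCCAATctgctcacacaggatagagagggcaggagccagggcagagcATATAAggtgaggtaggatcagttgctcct

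In Hba-a2 CACCC began 170 and 63 bases before the start, CCAAT 91 and ATATAA 31, and in Hba-a1 each lay 3 bases nearer, where all but the farthest CACCC fall inside the GENCODE transcript. In Hbb-bs AGATAA began 210 bases before the start, CACACCC 92, CCAAT 76 and ATATAA 30, and the CACCC at 90 is the end of CACACCC. Hbb-bt held CACCC at 140, 104 and 89, CCAAT at 75 and at 80 and 36 on the opposite strand, ATATAA at 29 and, overlapping it, ATAAA at 27. Both strands were searched for each of these and for ATAAA, and ATATAA was added after the sequences were seen. Of 32851 promoter windows of this length, 52% held CACCC, 6.93% held CACACCC, 33.8% held CCAAT, 9.99% held AGATAA, 37.3% held ATAAA and 9.1% held ATATAA. These matches describe letters and show no binding.

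As the authors divided reads between the copies, Hba-a1 was close to 0 in C57BL/6J and CAST/EiJ and one of the main globin RNAs in NZO/HlLtJ. In C57BL/6J it had 0, 16 and 4 counts in the 3 libraries on 10% fat and 43, 67, 12 and 20 in those on 44% fat. In CAST/EiJ it had 8, 30, 24 and 3 counts on 10% fat and 36, 39, 32 and 16 on 44% fat. In NZO/HlLtJ it had 1480, 3216, 3302 and 4833 counts on 10% fat and 1924, 1185, 1828 and 5562 on 44% fat. Every NZO/HlLtJ library was above every library of the other strains, by counts and by level, and this held within each series of library identifiers. As CPM, counts scaled to a common library size, the mean was 0.595 ± 0.642 in C57BL/6J (SD, n = 7), 0.630 ± 0.384 in CAST/EiJ (n = 8) and 71.8 ± 35.96 in NZO/HlLtJ (n = 8, from 34.004 to 127). The ratio of the NZO/HlLtJ mean to the C57BL/6J mean was 121, and to the CAST/EiJ mean 114, both resting on few counts in the lower strain. Without C57BL/6J 44% fat replicate 2 the C57BL/6J mean was 0.379 CPM. The count of 0 in C57BL/6J on 10% fat, replicate 1, allows up to 0.0744 CPM, the level of 3 counts. Of the 4 genes, Hba-a1 alone did not overlap between NZO/HlLtJ and either other strain, and 0 of 4 failed to overlap between CAST/EiJ and C57BL/6J. Over all 20189 genes tested, 23.9% were called between NZO/HlLtJ and C57BL/6J, 48.1% between NZO/HlLtJ and CAST/EiJ and 46.8% between CAST/EiJ and C57BL/6J by edgeR's quasi-likelihood test, with the adjusted p below a threshold of 0.05. These are shares of calls, a measure other than overlap, since the share of all genes without overlap was not computed. Nothing is read from this comparison, since these contrasts chose the genes, and Hba-a1 passed the count filter through the NZO/HlLtJ libraries.

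By the same division of reads, Hba-a2 was given most of the alpha globin counts in each strain. On 10% fat its levels were 53.8, 216 and 214 CPM in C57BL/6J, 54.0, 295, 90.5 and 110.4 CPM in CAST/EiJ, and 44.0, 123, 135 and 203 CPM in NZO/HlLtJ. On 44% fat they were 294, 266, 112 and 113 CPM in C57BL/6J, 131, 214, 136 and 109 CPM in CAST/EiJ, and 98.4, 75.2, 78.8 and 201 CPM in NZO/HlLtJ. The strains overlapped broadly. Those means were 181 ± 89.3 CPM in C57BL/6J, 142 ± 76.6 in CAST/EiJ and 120 ± 57.9 in NZO/HlLtJ.

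**Figure D1:**
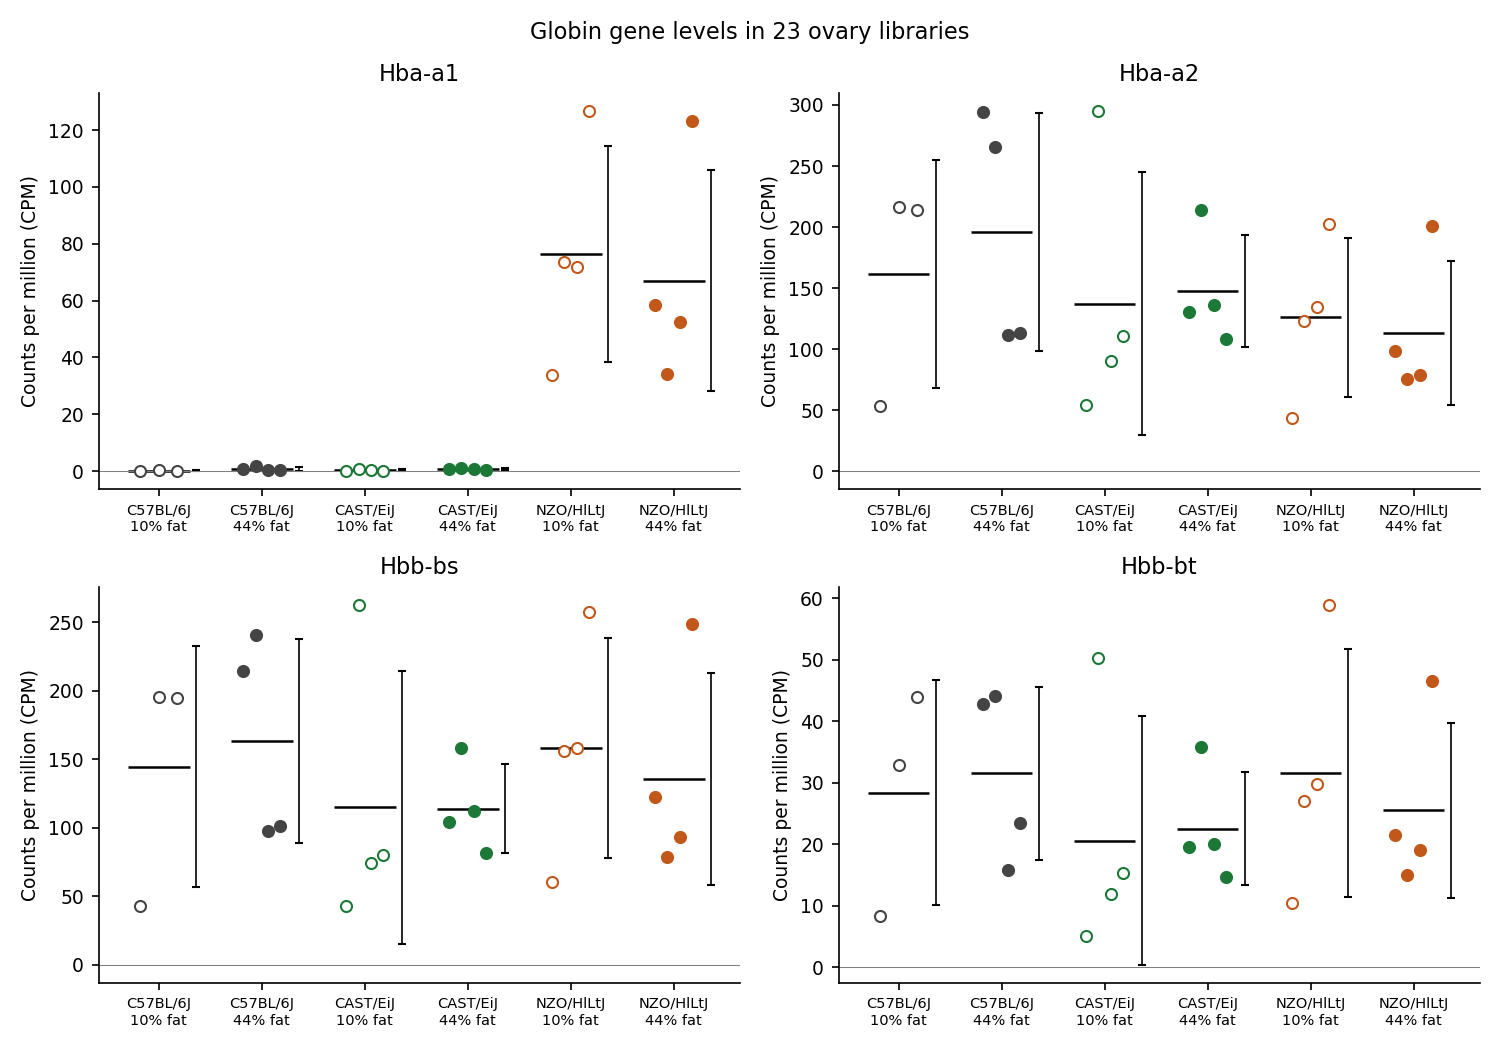
Levels of the 4 globin genes in each library (CPM, linear axes that differ between panels), by strain and diet. Open points are 10% fat and filled points 44% fat, lines are group means and bars are ± 1 SD. Hba-a1 lies between 34.004 and 127 CPM in NZO/HlLtJ and at or under 1.89 CPM in the other strains, while the other 3 genes overlap between strains.

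The share of alpha globin counts given to Hba-a1, which needs no scaling between libraries, also separated NZO/HlLtJ from the other strains. It was 0, 0.181 and 0.0583% in C57BL/6J on 10% fat and 0.313, 0.706, 0.297 and 0.442% on 44% fat. In NZO/HlLtJ it was 43.6, 37.4, 34.7 and 38.4% on 10% fat and 37.2, 31.3, 39.9 and 38.1% on 44% fat. CAST/EiJ libraries lay between 0.0714 and 0.665%. The NZO/HlLtJ mean was 37.6 ± 3.60%, against 0.285 ± 0.240% in C57BL/6J and 0.448 ± 0.218% in CAST/EiJ. The 95% Wilson interval of a single library was 29.8 to 32.7% for the lowest NZO/HlLtJ share and 41.9 to 45.3% for the highest, and covers counting error only. Per length of the annotated transcripts, the NZO/HlLtJ share was 32.3 ± 3.36%.

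The sum of both alpha genes did not separate the strains. It was 182 ± 89.7 CPM in C57BL/6J, 143 ± 76.9 in CAST/EiJ and 191 ± 93.5 in NZO/HlLtJ, with ranges that overlap between all 3. The NZO/HlLtJ sum was 1.05 times that of C57BL/6J, although its Hba-a2 was 0.661 times as high.

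The beta pair did not show a division that differs between strains. Hbb-bs, the more abundant of the pair, was at 42.9, 195 and 195 CPM in C57BL/6J on 10% fat, and at 214, 240.4, 97.8 and 101 CPM on 44% fat. In CAST/EiJ it was at 42.5, 263, 74.3 and 80.3 CPM on 10% fat and at 104, 158, 112 and 81.3 CPM on 44% fat. In NZO/HlLtJ it was at 60.6, 156, 158 and 257 CPM on 10% fat and at 122, 78.4, 92.9 and 249 CPM on 44% fat. Low and high libraries occurred in every strain. Hbb-bs averaged 155 ± 73.8 CPM in C57BL/6J, 114 ± 68.7 in CAST/EiJ and 147 ± 74.1 in NZO/HlLtJ. All strains overlapped. Hbb-bt averaged 30.2 ± 14.6, 21.6 ± 14.6 and 28.6 ± 16.5 CPM in the same order, from 5.04 CPM in CAST/EiJ on 10% fat, replicate 1, to 58.9 CPM in NZO/HlLtJ on 10% fat, replicate 4. Hbb-bs gave 83.7 ± 1.85% of beta counts in C57BL/6J, 84.8 ± 2.26% in CAST/EiJ and 84.0 ± 1.34% in NZO/HlLtJ. The lowest share was 81.2% and the highest 89.4%, and per length of transcript the means were 85.2, 86.2 and 85.5%.

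**Figure D2:**
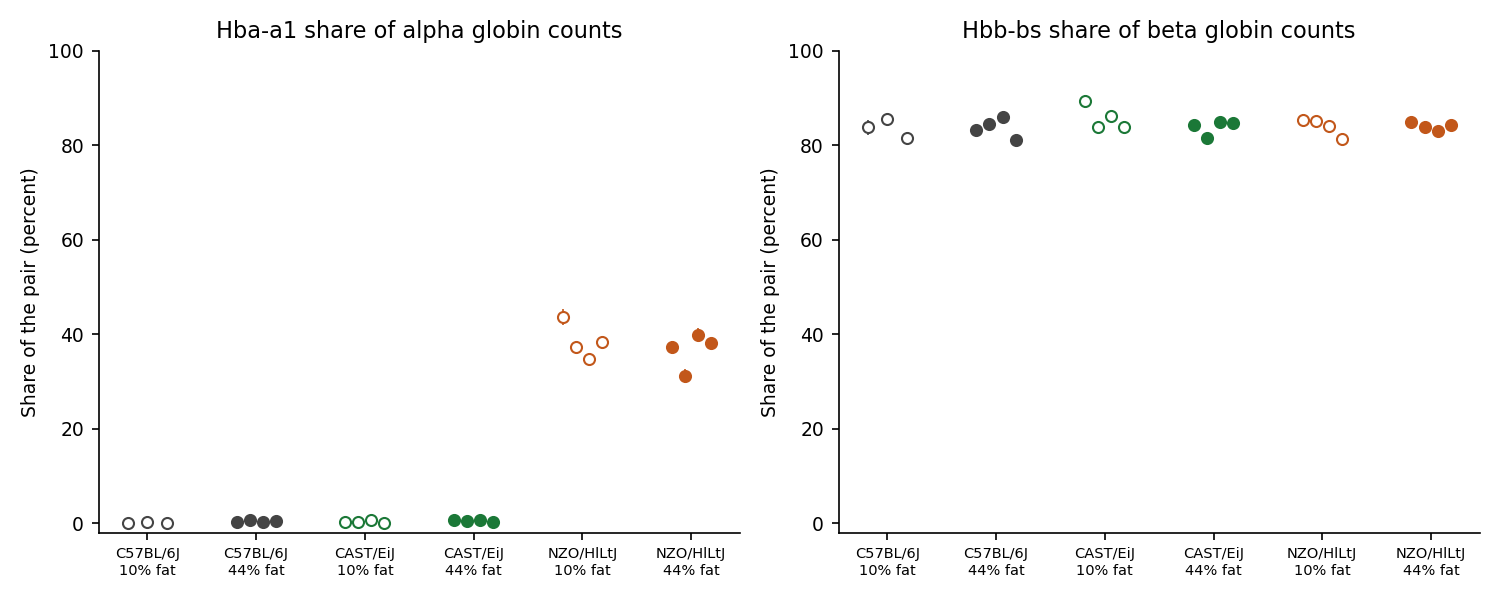
Share of alpha globin counts given to Hba-a1 (left) and of beta globin counts given to Hbb-bs (right), in percent, for each library, with 95% Wilson intervals that are often smaller than the point. Open points are 10% fat and filled points 44% fat. The Hba-a1 share is 31.3 to 43.6% in NZO/HlLtJ and under 1% in the other strains, while the Hbb-bs share lies between 81.2 and 89.4% in all 23 libraries.

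Total globin varied far more between libraries than between strains. The sum of the 4 genes averaged 367 ± 177 CPM in C57BL/6J, 279 ± 160 in CAST/EiJ and 367 ± 184 in NZO/HlLtJ. The lowest library, CAST/EiJ on 10% fat, replicate 1, had 101.7 CPM, and the highest, NZO/HlLtJ on 10% fat, replicate 4, had 645, which is 6.35 times as much. On 10% fat, replicate 1 was the lowest library of its group in each strain, at 105, 101.7 and 149 CPM. All 3 have library identifiers of series 76, in which the sum averaged 256 CPM (n = 8), against 445 in series 82 (n = 9) and 282 in series 90 (n = 6). No label calls these series batches, and a combination of strain, diet and series held at most 2 libraries. The part of the series in these levels was not tested beyond a fit with the series as a term.

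Alpha and beta RNA kept nearly the same proportion. The ratio of alpha to beta counts was 0.983 ± 0.0886 in C57BL/6J, 1.08 ± 0.0690 in CAST/EiJ and 1.11 ± 0.0449 in NZO/HlLtJ, and libraries of all strains overlapped. Per length of transcript it was 1.13 ± 0.102, 1.24 ± 0.0792 and 1.18 ± 0.0514.

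Within a strain, the alpha and beta genes followed each other from library to library. Hba-a2 with Hbb-bs (log2 CPM), a pair added after the values were seen, gave a Pearson r of 0.991 in C57BL/6J (n = 7), 0.993 in CAST/EiJ and 0.988 in NZO/HlLtJ (n = 8 each). Exact permutation p-values were 0.000992, 4.96e-05 and 2.48e-05 (the last is the smallest that permutation allows), and 0.00149, 9.92e-05 and 9.92e-05 when adjusted over the 6 correlations computed. Spearman's rho was 0.964, 0.976 and 1 (exact permutation p of 0.00278, 0.000397 and 4.96e-05), and r without the 2 libraries farthest from the median was 0.967, 0.983 and 0.991. Hba-a1 with Hbb-bs gave an r of 0.985 in NZO/HlLtJ (exact permutation p = 4.96e-05, adjusted 9.92e-05, rho 0.976, and 0.962 without the 2 farthest libraries). In C57BL/6J, where Hba-a1 has few counts, r was 0.771 (exact permutation p = 0.0419, adjusted 0.0502) and rho 0.821 (exact permutation p = 0.0341, adjusted 0.0410), so rho passed and r did not, and r fell to 0.0229 without the 2 farthest libraries, so the relation rests on them. In CAST/EiJ r was 0.651 (exact permutation p = 0.0835, adjusted the same) and rho 0.738 (exact permutation p = 0.0458, adjusted the same), with an r of 0.580 without the 2 farthest. The plan was to adjust over the Hba-a1 correlations alone, which was not computed, so the adjusted values near 0.05 depend on the added pair. Both genes of each pair come from the same library and share its depth.

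**Figure D3:**
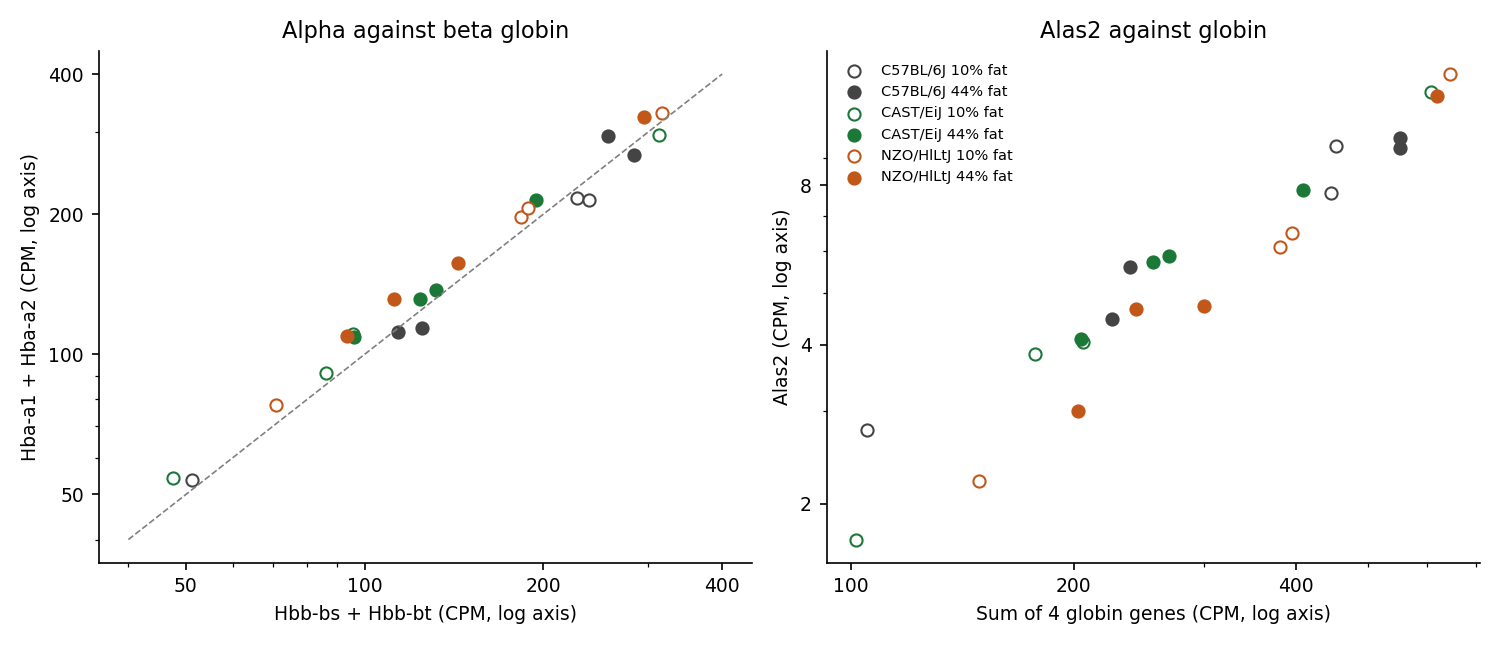
Left, sum of alpha against sum of beta globin genes (CPM, log axes), where the dashed line marks equal levels. Right, Alas2 against the sum of the 4 globin genes (CPM, log axes). Each point is 1 of 23 libraries, by strain and diet, open for 10% fat and filled for 44% fat, and the libraries of all strains lie along the same band in both plots, with the globin sum running from 101.7 to 645 CPM.

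Diet was not used to choose the genes, and 0 of 4 changed with it in any strain. This was so in each of 7 comparisons (diet within the 3 strains, diet averaged over them, and the 3 strain-by-diet terms). Over all genes tested, 0% were called in C57BL/6J, 0.624% in CAST/EiJ, 0% in NZO/HlLtJ and 0% averaged over strains, and the members' 0 lies at this background. For the strain-by-diet terms the shares called were 0.614% (CAST/EiJ against C57BL/6J), 0% (NZO/HlLtJ against C57BL/6J) and 0.0149% (NZO/HlLtJ against CAST/EiJ). At an unadjusted p under 0.05, edgeR gave 1783 genes in C57BL/6J (8.83%), 710 in NZO/HlLtJ (3.52%), 1190 averaged (5.89%) and 791 for NZO/HlLtJ against C57BL/6J (3.92%), and DESeq2 called 70, 4, 18 and 5. Over the 4 members the median log2 fold change was 0.23 in C57BL/6J, 0.11 in CAST/EiJ and -0.20 in NZO/HlLtJ, beside 0.01, -0.02 and 0.00 over all genes.

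Hba-a1 had the highest diet estimate, in the strains where it is rarest. In C57BL/6J it averaged 0.172 ± 0.201 CPM on 10% fat (n = 3) and 0.911 ± 0.697 on 44% fat (n = 4), with overlapping libraries, a log2 fold change of 2.34 ± 0.93 (SE) and an edgeR adjusted p of 0.501 (0.0203 unadjusted). Without C57BL/6J 10% fat replicate 2 the estimate for Hba-a1 was 3.94, with an adjusted p of 0.153, the lowest of any member in any fit. With limma on the deposited variance-stabilised log2 values it was 0.49 in C57BL/6J, 0.27 in CAST/EiJ and 0.19 averaged for Hba-a1, a scale that holds low counts close together. In CAST/EiJ it was at 0.419 ± 0.345 and 0.840 ± 0.327 CPM, with a log2 fold change of 1.00 ± 0.73 and an adjusted p of 0.610. In NZO/HlLtJ, where every library has at least 1185 counts, it was at 76.5 ± 38.0 and 67.0 ± 38.9 CPM, with -0.19 ± 0.49 and an adjusted p of 1. Averaged over strains the estimate for Hba-a1 was 1.05 ± 0.43 with an adjusted p of 0.805. The strain-by-diet term for Hba-a1 between NZO/HlLtJ and C57BL/6J was -2.53 ± 1.06, with an edgeR adjusted p of 1.00 (0.0266 unadjusted).

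The 3 abundant genes had log2 fold changes near 0 and wide errors. Hba-a2 was at 0.28 ± 0.59 in C57BL/6J, 0.10 ± 0.54 in CAST/EiJ and -0.16 ± 0.54 in NZO/HlLtJ. Hbb-bs was at 0.18 ± 0.61, -0.01 ± 0.56 and -0.22 ± 0.56 in the same order, and Hbb-bt at 0.15 ± 0.68, 0.13 ± 0.63 and -0.30 ± 0.63. When the fit also held a term for the identifier series, the NZO/HlLtJ estimates were 0.19 for Hba-a1, 0.35 for Hba-a2, 0.30 for Hbb-bs and 0.28 for Hbb-bt, opposite in sign. In that strain the diets differ in their series, with libraries of series 82 only on 10% fat and of series 90 only on 44% fat. With errors of this size, the values do not show that diet had no effect. In CAST/EiJ 1 library weighed on the estimates. Replicate 2 on 10% fat had the most globin of its strain (608 CPM) and the most oviduct and adipocyte marker RNA of all 23 libraries (5054 and 1300 CPM). When it was left out, the CAST/EiJ estimate was 0.79 for Hba-a2, 0.79 for Hbb-bs and 1.06 for Hbb-bt, and none passed. Macrophage markers also differed between diets in CAST/EiJ, where 5 of 6 were higher on 44% fat in edgeR, against 0 of 6 in the other strains. The part of other cells and tissue in the globin values was not tested.

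**Figure D4:**
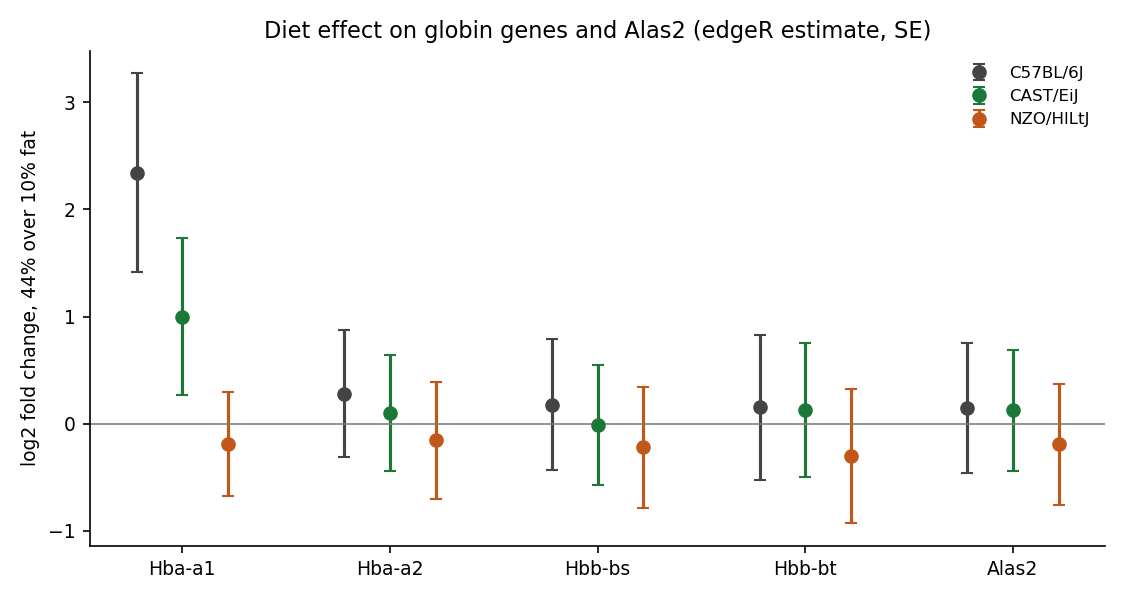
Diet effect (log2 fold change, 44% over 10% fat, edgeR) on the 4 globin genes and Alas2 in each strain, with bars of ± 1 SE. Hba-a1 in C57BL/6J stands highest, at 2.34, and no estimate passed the threshold after adjustment over all genes.

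Shares within the pairs gave 9 further tests between diets, of which 0 passed after adjustment. The smallest p that the design allows is 0.0286, so at least 6 of the 9 would have to reach it for any to pass, and the 0 says little. The Hba-a1 share in C57BL/6J was 0.0798 ± 0.0924% on the control diet and 0.439 ± 0.189% on 44% fat, and the diets did not overlap. The test gave a two-sided exact permutation p of 0.0286, and 0.257 after adjustment over 9. In CAST/EiJ the share was 0.337 ± 0.241 and 0.560 ± 0.138% (exact permutation p = 0.143) and in NZO/HlLtJ 38.5 ± 3.72 and 36.6 ± 3.75% (exact permutation p = 0.457). The Hbb-bs share and the alpha to beta ratio gave adjusted exact permutation p-values from 0.514 to 1.

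Alas2 was the gene most like the globins in how it varied. It encodes the first enzyme of heme synthesis in red cell precursors. After the mean of each group was subtracted, its log2 CPM followed that of the summed globins with an r of 0.975 (rho 0.980) over 23 libraries. Alas2 averaged 7.04 ± 2.80 CPM in C57BL/6J, 5.65 ± 3.14 in CAST/EiJ and 6.50 ± 3.92 in NZO/HlLtJ, from 1.71 to 13.0 CPM over all libraries, and the library with the most globin also had the most Alas2. The next genes were Clvs2 (0.747), Sidt1 (0.730), Ptprr (0.728), Iqca (0.727), Aass (0.715), Sgsm1 (0.713) and Esrp1 (0.7095), with gene models that have only a number for a name left aside. Of 15469 genes with a mean of at least 1 CPM, 13 had an r of at least 0.7, or 0.084%. The gap from Alas2 to the second gene was larger than that across the following 6. These values describe 23 libraries that share a depth and a tissue each, and carry no test.

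Lists of red cell genes did not follow the globins as groups. The median r was 0.01 over 7 red cell membrane genes, 0.25 over 15 genes of heme synthesis and iron supply, 0.20 over 8 of erythroid transcription and 0.19 over 9 of red cell maturation, beside 0.00 over all genes. Alas2 was the single gene of these lists with an r of at least 0.7. Slc4a1, the anion exchanger of the red cell membrane, was low, at 0.567 ± 0.433 CPM in C57BL/6J, 0.898 ± 0.936 in CAST/EiJ and 0.613 ± 0.615 in NZO/HlLtJ. Nprl3, the neighbour of the alpha cluster whose introns hold its main enhancers, had an r of -0.045. Marker sums of other cells the blood or the dissection could bring ranged from 8.80 to 23.6 CPM for platelets, 377 to 681 for endothelial cells and 124 to 434 for macrophages. Their median r to the globin sum was 0.15 for platelets, 0.02 for endothelial cells, 0.15 for macrophages, 0.35 for oviduct epithelium and 0.29 for white adipocytes. For cells of the ovary itself it was 0.33 for oocytes, -0.23 for granulosa cells and -0.01 for theca and luteal cells. The values of oviduct and adipocyte markers are thus not particular to tissue outside the ovary. Among neutrophil markers Ltf, which epithelia also make, reached 99.8 CPM in CAST/EiJ, and the others were at or under 2.41 CPM in every library. The part of these cells in the globin levels was not tested. Granulosa cell markers, of the follicle cells that define the ovary, were at 830 to 2837 CPM, and oocyte markers at 75.96 to 374 CPM, in every library.

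Of 13 other globin genes looked for, 4 were in the table and 3 were tested, and the rest were not analysed here. Hbq1b, a theta-like globin gene that lies between both alpha copies on chromosome 11, was at 0 to 13 counts per library. It averaged 0.0386 ± 0.0329 CPM in C57BL/6J, 0.0542 ± 0.0342 in CAST/EiJ and 0.165 ± 0.101 in NZO/HlLtJ, with overlapping libraries. It passed the count filter through NZO/HlLtJ, the strain where it is high, so no test is given, and it has a near-identical copy, so its counts are uncertain. Cygb, cytoglobin, was at 96.8 ± 12.5, 82.05 ± 13.4 and 127 ± 19.2 CPM in the same order, and was higher in NZO/HlLtJ by 0.37 against C57BL/6J (edgeR adjusted p = 0.0128) and by 0.62 against CAST/EiJ (3.4e-05). Ngb, neuroglobin, was at 0.528 ± 0.262, 0.575 ± 0.288 and 0.535 ± 0.130 CPM and passed no comparison, and Mb, myoglobin, was too low to be tested.

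The genes of red cell formation were compared between strains as lists, beside the shares over all genes. Over all genes, 23.2% were higher and 23.6% lower in CAST/EiJ than in C57BL/6J, 11.6% higher and 12.3% lower in NZO/HlLtJ than in C57BL/6J, and 23.4% higher and 24.8% lower in NZO/HlLtJ than in CAST/EiJ. Markers of other cells differed as well. In CAST/EiJ against C57BL/6J, 6 of 6 adipocyte and 4 of 5 oocyte markers were higher, and 5 of 8 endothelial and 4 of 6 macrophage markers lower. Among the adipocyte markers, Adipoq ran from 0.028 to 198 CPM in CAST/EiJ and from 0 to 13.0 CPM in C57BL/6J, with overlap. It had 0 to 3 counts in C57BL/6J on 10% fat, and Cidec and Lep had 0 counts in 3 and 4 of the 7 C57BL/6J libraries. Such genes may have passed the count filter through CAST/EiJ, where they are higher, so nothing is read from the 6 of 6. In NZO/HlLtJ against C57BL/6J, 5 of 6 macrophage markers were lower. In NZO/HlLtJ against CAST/EiJ, 5 of 6 adipocyte and 4 of 6 oviduct markers were lower and 0 higher. Of 8 endothelial markers, 5 were higher and 1 lower there, and of 6 macrophage markers 2 were higher and 1 lower. Some adipocyte and oviduct markers have few counts in NZO/HlLtJ, so the same limit of the count filter holds. Markers thus differed in all 3 strain comparisons. The part of these cells in the lists below was not tested. Each list holds few genes, and nothing particular to a list is read from its counts. Of 11 red cell membrane genes tested, 4 were higher and 2 lower in CAST/EiJ than in C57BL/6J, 3 higher and 0 lower in NZO/HlLtJ than in C57BL/6J, and 3 higher and 2 lower in NZO/HlLtJ than in CAST/EiJ. Sptb, beta spectrin, which many tissues make, was higher by 1.56 in CAST/EiJ and by 1.38 in NZO/HlLtJ on the log2 scale (edgeR adjusted p = 2.1e-09 and 4.1e-08 against C57BL/6J). Epb42, which anchors the membrane skeleton, had 3 to 43 counts per library in C57BL/6J, 0 to 7 in CAST/EiJ and 3 to 23 in NZO/HlLtJ. It is counted as lower in CAST/EiJ but passed the count filter through the other strains, so its test is not given.

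Of 15 genes of heme synthesis and iron supply, 5 were higher and 3 lower in CAST/EiJ than in C57BL/6J, 1 higher and 2 lower in NZO/HlLtJ than in C57BL/6J, and 3 higher and 5 lower in NZO/HlLtJ than in CAST/EiJ. Uros, an enzyme of the middle steps of the pathway, was at -1.23 in CAST/EiJ against C57BL/6J (edgeR adjusted p = 7.6e-09). Alad, the second enzyme, was higher in NZO/HlLtJ by 1.17 against C57BL/6J (5.5e-09) and by 0.69 against CAST/EiJ (1.2e-06). Alas2 passed in 0 of the 3 strain comparisons. Among 13 genes of heme and iron clearance, 4 were higher and 3 lower in CAST/EiJ than in C57BL/6J, 1 higher and 4 lower in NZO/HlLtJ than in C57BL/6J, and 2 higher and 8 lower in NZO/HlLtJ than in CAST/EiJ. Ftl1, the ferritin light chain, was at -0.70 (1.2e-05) and Hmox1, heme oxygenase, at -0.74 (0.000595) in NZO/HlLtJ against C57BL/6J. Blvra, which turns biliverdin into bilirubin, was at -0.60 (1.7e-06) in NZO/HlLtJ against CAST/EiJ.

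Of 11 erythroid transcription genes, 3 were higher in CAST/EiJ than in C57BL/6J and 0 lower, 1 was higher and 0 lower in NZO/HlLtJ than in C57BL/6J, and 1 was higher and 1 lower in NZO/HlLtJ than in CAST/EiJ. Bcl11a, a repressor of embryonic and fetal globin genes, was higher by 0.53 in CAST/EiJ and 0.47 in NZO/HlLtJ (edgeR adjusted p = 0.00776 and 0.0293 against C57BL/6J). Of 11 red cell maturation genes, 3 were higher and 1 lower in CAST/EiJ than in C57BL/6J, 3 higher and 1 lower in NZO/HlLtJ than in C57BL/6J, and 1 higher and 4 lower in NZO/HlLtJ than in CAST/EiJ. Car1, a carbonic anhydrase of red cells, had 0 to 9 counts per library in C57BL/6J, 0 to 6 in CAST/EiJ and 3 to 36 in NZO/HlLtJ. It is among the genes counted as higher in NZO/HlLtJ, but it passed the count filter through that strain, so its test is not given. Of the 6 neighbours of the alpha cluster, Nprl3 was at -0.20 in CAST/EiJ against C57BL/6J (0.0470) and did not pass in the other strain comparisons, and Sh3pxd2b was higher by 0.49 in CAST/EiJ than in C57BL/6J (0.0180) and at -0.43 in NZO/HlLtJ against CAST/EiJ (0.0303).

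Between diets, 0 genes of these globin and red cell lists passed in edgeR within a strain or averaged over strains, and of the strain-by-diet terms only that of Hebp1 between CAST/EiJ and C57BL/6J passed, at 0.78. Averaged over strains, Alas2 was at 0.02 ± 0.33 (adjusted p = 1.00), Sptb at 0.19 (0.838) and Epb41 at -0.01 (1.00) on the log2 scale. Alas1, the heme enzyme of other tissues, was at 0.41 (0.833) and Fech, which inserts the iron, at -0.04 (0.944). Ldb1 and Zbtb7a, transcription regulators of red cell precursors, were at 0.07 (0.920) and 0.01 (1.00). Prdx2, a peroxidase abundant in red cells, was at -0.09 (0.956) and the mitophagy receptor Bnip3l at -0.08 (0.875). The scavenger receptor Lrp1 was at -0.10 (0.9501), Ftl1 at -0.03 (0.992), Sh3pxd2b at 0.08 (0.982) and Rhbdf1 at 0.04 (0.980). Cygb was at -0.12 (0.903) and Ngb at 0.03 (1.00).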

How the data were processed

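Libraries were made from polyA RNA and sequenced as read pairs of 100 bases, per the labels' protocols. The authors deposited estimated counts per gene (22.01% of values were not whole, to within 0.001) and variance-stabilised log2 values, which served as an alternative only. The submitters' processing notes name GRCm38 and DESeq2; the aligner, the counting tool and the annotation are not given in the sources used here. All sample columns matched a sample.

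Estimated counts were rounded. Library totals were 31.9 to 45.9 M counts, and the 33 pairs of libraries within a group gave a chi-square of 11.5 to 203 per degree of freedom, so none was counted as a repeat. Genes were kept with filterByExpr (minimum count 10, total 15), leaving 20189 (81.7%), scaled by TMM and fitted with edgeR 4.0.16's quasi-likelihood test in R 4.3.3 over 6 groups, with Benjamini-Hochberg adjustment over all genes and a threshold of 0.05. The script was tested on simulated data. CPM uses the scaled library sizes, and log2 CPM a prior count of 2. The SE of an edgeR log2 fold change was derived from the test, as its absolute value divided by the square root of the F statistic. Exact permutation tests and Wilson intervals (95%) used scipy 1.17.1. Alternatives were DESeq2 1.42.0, limma 3.58.1 on the deposited log2 values, other scalings and filters, the identifier series, and each library left out.

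The members and gene lists were chosen with earlier results of these data known. Named genes are the 4 members, other globins, up to 3 genes of the smallest p of a list (otherwise the 2 with the highest CPM), and the 8 genes most like the globin sum; Slc4a1 was chosen after its values were seen. Strain tests of the members are not given. Results for some list genes are not reported here.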

Additional observations from a re-analysis of the deposited data

Results flagged for a closer look

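Hebp1, a heme-binding protein gene, passed a test of the difference in diet response between CAST/EiJ and C57BL/6J. It was 1 of 13 genes tested in the heme and iron clearance list, and 0.614% of all genes were called in this comparison. The number called there ranged from 8 to 877 with each library left out, and the estimate for Hebp1 in those fits is not given here. The strain-by-diet term was 0.78 ± 0.17 on the log2 scale (SE), with an edgeR adjusted p of 0.0441 and a DESeq2 adjusted p of 0.00218. Hebp1 was at 12.0 ± 0.588 CPM on 10% fat (n = 3) and 8.22 ± 0.920 on 44% fat (n = 4) in C57BL/6J, without overlap, and at 17.0 ± 1.32 and 19.9 ± 3.25 CPM in CAST/EiJ (n = 4 each), with overlap. Within each strain the diet effect itself did not pass in edgeR (adjusted p of 0.327 and 0.401). Among the globin levels, sums, shares and ratio, 45 tests for 1 library far from the rest of its group (9 measures in the 5 groups of 4 libraries, leaving out C57BL/6J on 10% fat with 3) gave 0 such libraries, where chance gives about 1 in 20.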

How the results depend on the processing

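No paired analysis was possible because the replicate numbers are in deposit order and pair no libraries. None of the 892 fitted values of the 28 diet and strain-by-diet effects on the globin genes passed the threshold. The 21 strain means of genes and sums moved by less than the SD between libraries in 3 other settings each. With a library of the strain left out, a mean over this many libraries cannot move by as much as that SD, so that check decides nothing. Signs and counts did move, and the cause was not tested. The number of genes called for diet was 70 in C57BL/6J, 596 in CAST/EiJ, 4 in NZO/HlLtJ and 18 averaged with DESeq2, and 851, 5 and 194 for the strain-by-diet terms (CAST/EiJ against C57BL/6J, NZO/HlLtJ against C57BL/6J, NZO/HlLtJ against CAST/EiJ). With the identifier series as a term it was 66 in CAST/EiJ, and 49 and 0 for the terms of CAST/EiJ against C57BL/6J and NZO/HlLtJ against CAST/EiJ. With only the groups compared it was 0, 17 and 0 in the same order, and without both libraries highest in oviduct markers it was 30 and 5 for those terms. The fit of only the groups compared was not run for the average, where it is the same fit.

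Effects that changed sign did so as follows, on the log2 scale. Without both oviduct libraries, Hbb-bt was at -0.03 in C57BL/6J, Hbb-bs at 0.79 in CAST/EiJ, Hbb-bs at 0.20 and Hbb-bt at 0.25 averaged, and Hba-a2, Hbb-bs and Hbb-bt at 0.78, 0.78 and 1.1 for CAST/EiJ against C57BL/6J. With limma on the deposited log2 values, Hba-a1 kept its sign at 0.49 in C57BL/6J and -0.68 for NZO/HlLtJ against C57BL/6J, Hbb-bs was at 0.26 in CAST/EiJ and 0.13 averaged, and Hbb-bt at 0.14 averaged and 0.12 for CAST/EiJ against C57BL/6J. With the identifier series as a term, Hba-a1, Hba-a2, Hbb-bs and Hbb-bt were at 0.19, 0.35, 0.30 and 0.28 in NZO/HlLtJ, Hbb-bs and Hbb-bt at 0.30 and 0.37 averaged, and Hba-a2, Hbb-bs and Hbb-bt at 0.28, 0.31 and 0.11 for NZO/HlLtJ against CAST/EiJ. With no count filter Hbb-bt was at 0 averaged. With a prior count of 0.5 the correlation of Hba-a1 with Hbb-bs in C57BL/6J was 0.804 and passed (exact permutation, adjusted p = 0.0407). That adjustment was over 6 correlations, including the pair added after the values were seen. The planned adjustment over the Hba-a1 correlations alone was not computed, so little rests on this pass.

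With each library left out in turn, the genes called ranged from 0 to 330 in C57BL/6J, 28 to 220 in CAST/EiJ, 0 to 1 in NZO/HlLtJ and 0 to 7 averaged, and from 8 to 877 and 0 to 11 for CAST/EiJ against C57BL/6J and NZO/HlLtJ against CAST/EiJ. The effect on Hba-a2 ranged from -0.13 to 0.56 in C57BL/6J, -0.16 to 0.79 in CAST/EiJ, -0.58 to 0.17 in NZO/HlLtJ and -0.07 to 0.30 averaged. That on Hbb-bs ranged from -0.25 to 0.46, -0.29 to 0.79, -0.69 to 0.12 and -0.17 to 0.25 in the same order, and that on Hbb-bt from -0.28 to 0.61, -0.20 to 1.06, -0.76 to 0.19 and -0.16 to 0.30. Hba-a1 ranged from -0.66 to 0.17 in NZO/HlLtJ. The strain-by-diet terms ranged from -0.45 to 0.51, -0.47 to 0.61 and -0.48 to 0.91 (Hba-a2, Hbb-bs, Hbb-bt, CAST/EiJ against C57BL/6J), -0.87 to 0.04 and -0.92 to 0.04 (Hbb-bs, Hbb-bt, NZO/HlLtJ against C57BL/6J), and -0.94 to 0.07, -1.01 to 0.13 and -1.36 to 0.06 (Hba-a2, Hbb-bs, Hbb-bt, NZO/HlLtJ against CAST/EiJ). The difference in the Hbb-bs share ranged from -0.925 to 1.08 points in C57BL/6J and -0.877 to 0.448 in NZO/HlLtJ, and that in the alpha to beta ratio from -0.0205 to 0.0723 in C57BL/6J and -0.0307 to 0.0392 in CAST/EiJ. The correlation of Hba-a1 with Hbb-bs ranged from 0.370 to 0.912 in C57BL/6J and 0.535 to 0.798 in CAST/EiJ. Depth limits Hba-a1 in C57BL/6J and CAST/EiJ, where it has at most 67 counts. Counts of each copy also depend on how the authors divided reads between near-identical genes.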
